A study of Mus musculus with 16 samples.

Results

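The secretases that cut the amyloid precursor protein were followed as 9 genes in mouse brain cortex, chosen by gene symbol from the 55385 genes of the deposited count table. They were the alpha-secretases Adam10 and Adam17, the beta-secretases Bace1 and Bace2, and the gamma-secretase subunit genes Psen2, Ncstn, Psenen, Aph1a and Aph1b. All 9 were among the 17019 genes that passed the filter on low counts. Bace2 lies in the segment of mouse chromosome 16 that is present in an extra copy in Dp16 mice, and the other 8 lie outside it. PolyA RNA was sequenced from 16 animals aged 5 months, with 1 library per animal and 4 animals per genotype. The 5xFAD-Dp16 animals carried both the transgenes and the duplication and were 4 males. The 5xFAD animals carried human transgenes with familial Alzheimer mutations, among them the amyloid precursor protein, driven by the neuronal Thy1 promoter. The Dp16 animals carried the duplication of the segment that corresponds to most of human chromosome 21. The wild-type C57BL/6J animals (WT) carried neither. The 5xFAD, Dp16 and WT groups each held 2 males and 2 females, so the 5xFAD-Dp16 group differed from the other groups in sex as well as genotype, and sex was a term of the model.

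Alpha-secretases are membrane metalloproteases that cut the amyloid precursor within the amyloid-beta stretch, so that this peptide is not formed. Beta-secretases are membrane aspartic proteases. Bace1 makes the first of the cuts that release amyloid-beta in neurons, whereas the related Bace2 is known for cutting inside the amyloid-beta stretch and for its role in pigment cells and pancreatic islets. Gamma-secretase is a complex of a presenilin, which holds the catalytic site, with nicastrin (Ncstn), presenilin enhancer (Psenen) and an Aph1 scaffold, and it makes the last cut inside the membrane.

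Reads can be assigned to these genes only where their sequences differ from those of other genes, and this was examined on the Gencode transcripts (GRCm38). The closest relatives were Aph1b and Aph1c, a pair of mouse genes beside each other on chromosome 9, whose coding sequences were identical at 96.2% of 771 aligned bases. The first coding exon of each, from the start codon, is shown because it is one of the places where reads can tell this pair apart. Capitals mark the 14 of 113 bases that differ. The Aph1b stretch is chr9:66795253-66795365 and the Aph1c stretch is chr9:66834486-66834598, both on the minus strand.
Aph1b: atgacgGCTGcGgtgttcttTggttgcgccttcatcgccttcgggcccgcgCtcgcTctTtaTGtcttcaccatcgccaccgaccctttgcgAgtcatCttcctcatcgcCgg
Aph1c: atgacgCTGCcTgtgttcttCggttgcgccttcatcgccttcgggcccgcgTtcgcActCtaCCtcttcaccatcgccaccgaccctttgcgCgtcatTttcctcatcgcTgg

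The beta-secretases were far more distant, with 60.1% identity over 1482 aligned coding bases. The coding bases around the first catalytic aspartate of Bace1 and Bace2 are shown, chosen for that site and not by likeness. Capitals mark the 16 of 61 bases that differ, and the aspartate codon stands at printed bases 16 to 18. The Bace1 stretch is chr9:45852888-45852948 and the Bace2 stretch is chr16:97399634-97399694, both on the plus strand.
Bace1: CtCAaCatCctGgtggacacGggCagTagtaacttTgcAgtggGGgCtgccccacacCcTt
Bace2: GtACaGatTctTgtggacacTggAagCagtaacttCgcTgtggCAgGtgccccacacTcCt

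No stretch of 50 bases of the Bace2, Adam10 or Psen2 transcript occurred in a transcript of another gene, on either strand. The share of such stretches that did occur elsewhere was 5.93% for Adam17, 5.15% for Ncstn, 19.67% for Aph1b, 30.74% for Bace1, 39.0% for Psenen and 47.87% for Aph1a. The partners were the overlapping opposite-strand genes Iah1 for Adam17, Copa for Ncstn and, for 15.41% of its stretches, Rnf214 for Bace1. For Aph1b the partner was Aph1c, for Psenen the gene Gm12396, and for 24.91% of the stretches of Aph1a the processed pseudogene Gm15429, which averaged 5.2 counts. The strand setting of the counting is not given in the sources used here, so reads of Bace1, Adam17, Ncstn, Psenen and Aph1a may include some from their opposite-strand neighbours. The counts of these 5 genes and of Aph1b are uncertain to that extent.

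Library totals lay between 12483286 and 20385010 counted reads. All 8 neuronal markers examined were detected in each library, and their summed level was 8513 to 9338 CPM (counts scaled to library size) in 5xFAD-Dp16, 8123 to 10250 in 5xFAD, 7834 to 8889 in Dp16 and 8130 to 9606 in WT. Marker by marker the sum is less even: in 5xFAD-Dp16 against 5xFAD, 7 of the 8 had a positive log2 difference, with a median of 0.58 beside 0.00 over all genes, and 5 had an unadjusted p under 0.05. The libraries also differed in how the level of a gene, relative to its mean over libraries, ran with gene length. This length trend, as Spearman's rho across genes, was 0.522, 0.128, 0.445 and 0.269 in the 5xFAD-Dp16 libraries and 0.298, 0.109, -0.483 and -0.262 in the 5xFAD libraries. It was -0.039, -0.158, 0.302 and -0.359 in Dp16, and -0.336, -0.439, -0.16 and 0.503 in WT. Long genes therefore read relatively high in all 4 5xFAD-Dp16 libraries, and each of the other genotypes held libraries of both signs. The trend and the 5xFAD-Dp16 genotype thus ran partly together, and what set the trend apart between libraries was not tested. For the main differences below, the value with the trend removed is given as well.

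The 9 genes spanned a wide range of levels. On the authors' RPKM scale, which divides by gene length, Psenen averaged 55.1 ± 7.1 (SD, n = 16 libraries) and Bace2 averaged 0.726 ± 0.301, a ratio of 75.9 between the highest and the lowest mean. Between them came Ncstn at 14 ± 3.67, Adam10 at 12.2 ± 2.37, Bace1 at 9.35 ± 1.54 and Aph1b at 6.68 ± 0.609 RPKM. Psen2 averaged 4.85 ± 0.701, Aph1a 4.19 ± 0.839 and Adam17 1.92 ± 0.508 RPKM. Over all 16 libraries only Psenen and Ncstn, and Aph1a and Adam17, were neighbours in this order whose ranges did not overlap. Bace2 was the lowest of the 9 and Psenen the highest in each genotype. Within 5xFAD-Dp16, 5xFAD, Dp16 and WT the order was the same apart from Adam10 and Ncstn in 5xFAD, which stood at 11.2 ± 3.11 and 10.3 ± 3.33 RPKM (SD, n = 4) with overlapping ranges.

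**Figure D1:**
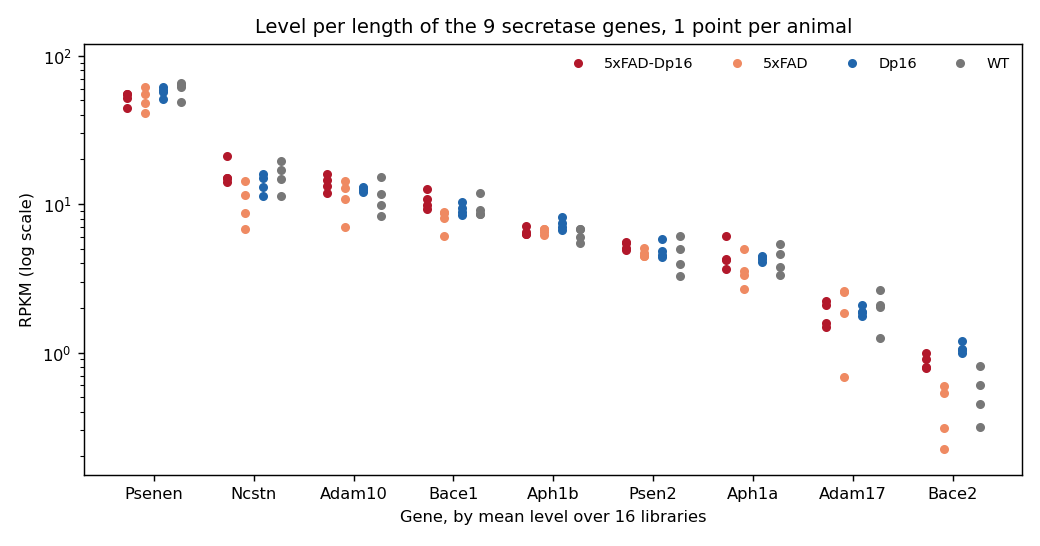
Level per gene length (RPKM, log axis) of the 9 secretase genes, with 1 point per animal and the genotypes 5xFAD-Dp16, 5xFAD, Dp16 and WT side by side, ordered by the mean over 16 libraries. Psenen stands above the other genes in each library (means 55.1 against 14 RPKM for Ncstn), and for Bace2 the Dp16 points and the 5xFAD-Dp16 points mostly lie above those of WT and 5xFAD.

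No secretase gene passed the adjusted threshold of 0.05 in any comparison between genotypes. In Dp16 against WT, 0 of 9 passed, beside 0.0176% of all tested genes. In 5xFAD against WT it was 0 of 9 beside 0.176%, in 5xFAD-Dp16 against 5xFAD 0 of 9 beside 0.0%, in 5xFAD-Dp16 against Dp16 0 of 9 beside 0.0176%, and in 5xFAD-Dp16 against WT 0 of 9 beside 0.047%. The mean effect of the duplication over both backgrounds (8 carriers against 8 non-carriers) gave 0 of 9 beside 0.094%, the mean effect of the transgenes 0 of 9 beside 0.188%, and the interaction 0 of 9 beside 0.0%. These counts, and the adjusted p-values below, come from edgeR's quasi-likelihood test, Benjamini-Hochberg adjusted over the 17019 genes. So few genes passed that a count of 0 says little about the 8 secretase genes outside the segment. Within the segment 15 of 105 tested genes passed for the mean duplication effect, and Bace2 did not. The fold changes of all 9 with 95% intervals are given instead.

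At an unadjusted p under 0.05, 1 of 9 genes (Bace2) lay in Dp16 against WT beside 3.88% of all genes, and 1 of 9 (Ncstn) in 5xFAD against WT beside 10.7%. For 5xFAD-Dp16 against 5xFAD it was 3 of 9 (Bace2, Ncstn and Bace1) beside 23.8%. In 5xFAD-Dp16 against Dp16 it was 1 of 9 (Aph1b) beside 5.29%, and in 5xFAD-Dp16 against WT 0 of 9 beside 10.4%. The mean duplication effect gave 1 of 9 (Bace2) beside 15%, the mean transgene effect 0 of 9 beside 7.53%, and the interaction 3 of 9 (Ncstn, Bace1 and Aph1b) beside 9.35%. DESeq2 called 1 of the 9 past its adjusted threshold in 5xFAD-Dp16 against 5xFAD (Ncstn), beside 2.43% of all genes, and 1 for the mean duplication effect (Bace2), beside 0.326%.

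**Figure D2:**
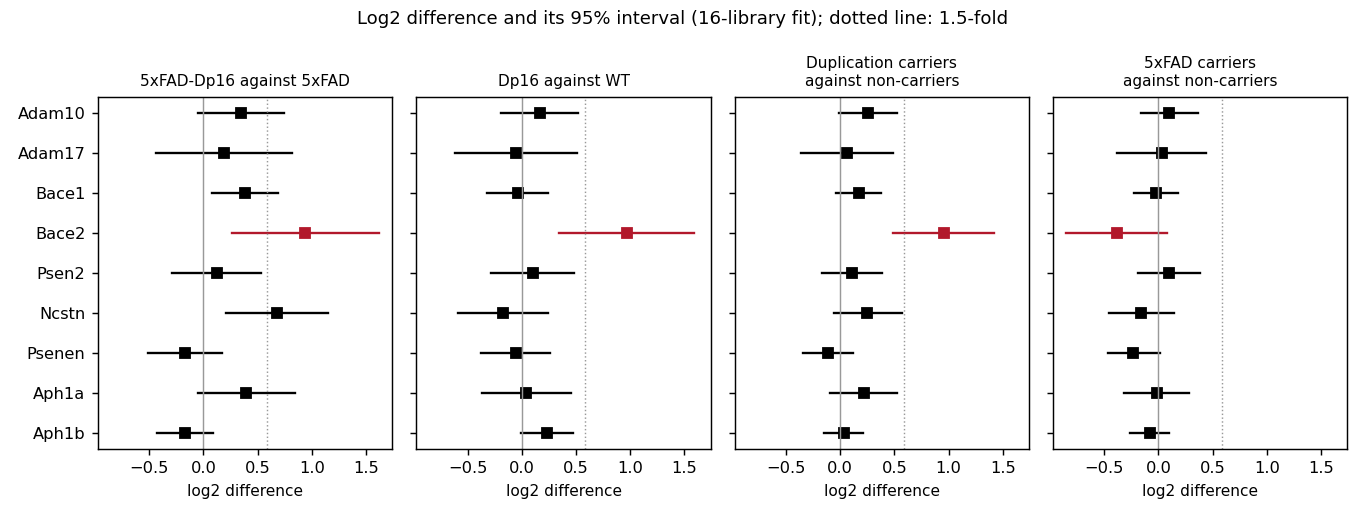
Fitted log2 difference of each secretase gene (square) with its 95% interval (bar) in 4 comparisons of the 16-library fit, with Bace2 in red and a dotted line at 1.5-fold. Bace2 lies at 0.94, 0.97 and 0.95 in the 3 comparisons that differ in the duplication, with intervals above 0, and at -0.38 for the 5xFAD carriers against the non-carriers, with an interval that spans 0.

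Among the alpha-secretases, Adam10 (ENSMUSG00000054693.14, chromosome 9, 70678997 to 70780229, plus strand) is the main constitutive alpha-secretase of neurons. It had 69.9, 58.8, 65.1 and 53.1 CPM in 5xFAD-Dp16, 64.6, 58.9, 36.1 and 50.9 in 5xFAD, 60.3, 56.9, 58.6 and 55.8 in Dp16, and 46.1, 39.2, 53.4 and 68.3 in WT. The 4 genotypes overlapped, the Dp16 libraries lay close together, and the lowest values were in a 5xFAD and a WT library with strongly negative length trends. Its mean duplication effect was 0.26 on the log2 scale (SE 0.13, 1.194-fold, 95% interval -0.01 to 0.52, adjusted p = 0.338), and the mean transgene effect 0.10 (SE 0.12, adjusted p = 0.94). The log2 difference between 5xFAD-Dp16 and 5xFAD was 0.35 (SE 0.19, adjusted p = 0.26). Corrected for the length trend it was 0.18, and the mean duplication effect 0.17.

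Adam17 (ENSMUSG00000052593.16, chromosome 12, 21323509 to 21373632, minus strand) encodes the sheddase of tumour necrosis factor and is the regulated alpha-secretase. It had 9.61, 6.98, 6.48 and 9.08 CPM in 5xFAD-Dp16, 11.4, 11.7, 3.43 and 8.54 in 5xFAD, 8.45, 8.44, 7.90 and 9.55 in Dp16, and 9.58, 12.3, 5.63 and 8.94 in WT. The genotypes overlapped fully, and the 5xFAD library at 3.43 CPM was the lowest of the 16. The mean duplication effect was 0.07 (SE 0.20, 95% interval -0.36 to 0.49, adjusted p = 0.878), the widest interval among the 8 genes outside the segment.

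Bace1 (ENSMUSG00000032086.12, chromosome 9, 45838580 to 45864399, plus strand) is the major beta-secretase of neurons. It had 73.3, 55.0, 63.6 and 57.9 CPM in 5xFAD-Dp16, 52.0, 54.0, 41.1 and 49.97 in 5xFAD, 54.1, 56.5, 62.5 and 51.9 in Dp16, and 56.6, 53.4, 51.7 and 70.1 in WT. Each 5xFAD-Dp16 library lay above each 5xFAD library, while Dp16 and WT overlapped. The log2 difference between 5xFAD-Dp16 and 5xFAD was 0.39 (SE 0.15, 1.306-fold, 95% interval 0.08 to 0.69, adjusted p = 0.159). Corrected for the length trend it was 0.11 (adjusted p = 0.538). In fits that rest on the 2 5xFAD males it passed the threshold. These were males only (0.47, adjusted p = 0.0452) and only the groups compared (0.45, adjusted p = 0.0403), where 22.5% and 31.3% of all genes passed. In Dp16 against WT it was -0.04 (SE 0.13, 95% interval -0.32 to 0.24, adjusted p = 1), and the interaction was 0.42 (SE 0.20, adjusted p = 0.522), or 0.19 with the length trend removed. The mean transgene effect on Bace1 was -0.02 (SE 0.10, 95% interval -0.23 to 0.18, adjusted p = 0.993), or -0.10 with the trend removed.

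Bace2 (ENSMUSG00000040605.7, chromosome 16, 97356742 to 97442936, plus strand) was the one secretase gene inside the duplicated segment, near its distal end. It had 6.64, 5.87, 5.90 and 7.38 CPM in 5xFAD-Dp16, 4.02, 1.72, 2.64 and 4.67 in 5xFAD, 8.16, 7.53, 9.11 and 8.06 in Dp16, and 3.51, 2.48, 4.60 and 6.05 in WT. Each Dp16 library lay above each WT library and each 5xFAD-Dp16 library above each 5xFAD library. Among carriers of the duplication, each 5xFAD-Dp16 library lay below each Dp16 library. On the RPKM scale Bace2 averaged 0.871 ± 0.0988 in 5xFAD-Dp16, 0.415 ± 0.177 in 5xFAD, 1.07 ± 0.0872 in Dp16 and 0.546 ± 0.213 in WT (SD, n = 4 each).

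Bace2 was the only one of the 9 genes whose groups did not overlap in Dp16 against WT, where 1.44% of all genes were higher without overlap and 0.852% lower. Bace2 and Bace1 were higher without overlap in 5xFAD-Dp16 against 5xFAD, 2 of 9 beside 5.59% of all genes. In 5xFAD-Dp16 against Dp16, Bace2 was lower without overlap, 1 of 9 beside 2.61%. The groups of the other secretase genes overlapped in each of these 3 comparisons. All 9 overlapped in 5xFAD against WT, where 2.82% of all genes were higher without overlap and 2.68% lower, and in 5xFAD-Dp16 against WT, where it was 2.37% and 1.61%.

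The fitted Bace2 difference was positive on both backgrounds. In Dp16 against WT it was 0.97 on the log2 scale (SE 0.30, 1.958-fold, 95% interval 0.34 to 1.59), with an unadjusted p of 0.00449 and an adjusted p of 0.764 from edgeR's quasi-likelihood test. In 5xFAD-Dp16 against 5xFAD it was 0.94 (SE 0.32, 1.917-fold, 95% interval 0.26 to 1.62), with an unadjusted p of 0.00941 and an adjusted p of 0.155. Over both backgrounds it was 0.95 (SE 0.22, 1.937-fold, 95% interval 0.49 to 1.42), with an unadjusted p of 0.000433 and an adjusted p of 0.171. The duplication effect on the transgenic background minus that without the transgenes was -0.03 (SE 0.44, adjusted p = 0.98). Its interval of -0.95 to 0.89 includes differences between backgrounds nearly as large as the effect itself. Corrected for the length trend, the difference was 0.98 in Dp16 against WT and 0.62 in 5xFAD-Dp16 against 5xFAD, and the interaction -0.36. The mean transgene effect was -0.38 (SE 0.22, 95% interval -0.85 to 0.08, adjusted p = 0.762), and 5xFAD-Dp16 against WT gave 0.57 (SE 0.32, adjusted p = 0.512), or 0.33 with the trend removed.

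The depth behind these Bace2 values was low. The counts were 139, 106, 113 and 134 reads in 5xFAD-Dp16, 61, 30, 40 and 83 in 5xFAD, 115, 132, 180 and 163 in Dp16, and 59, 30, 76 and 115 in WT. The exact 95% Poisson interval of the lowest count, 30 reads, was 20.2 to 42.8, and that of the highest, 180 reads, was 155 to 208. These intervals cover counting error only. WT replicate 4, with 115 reads, decided the call for the mean duplication effect: without it the log2 difference was 1.06 and the adjusted p 0.039, beside 0.247% of all genes called.

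**Figure D3:**
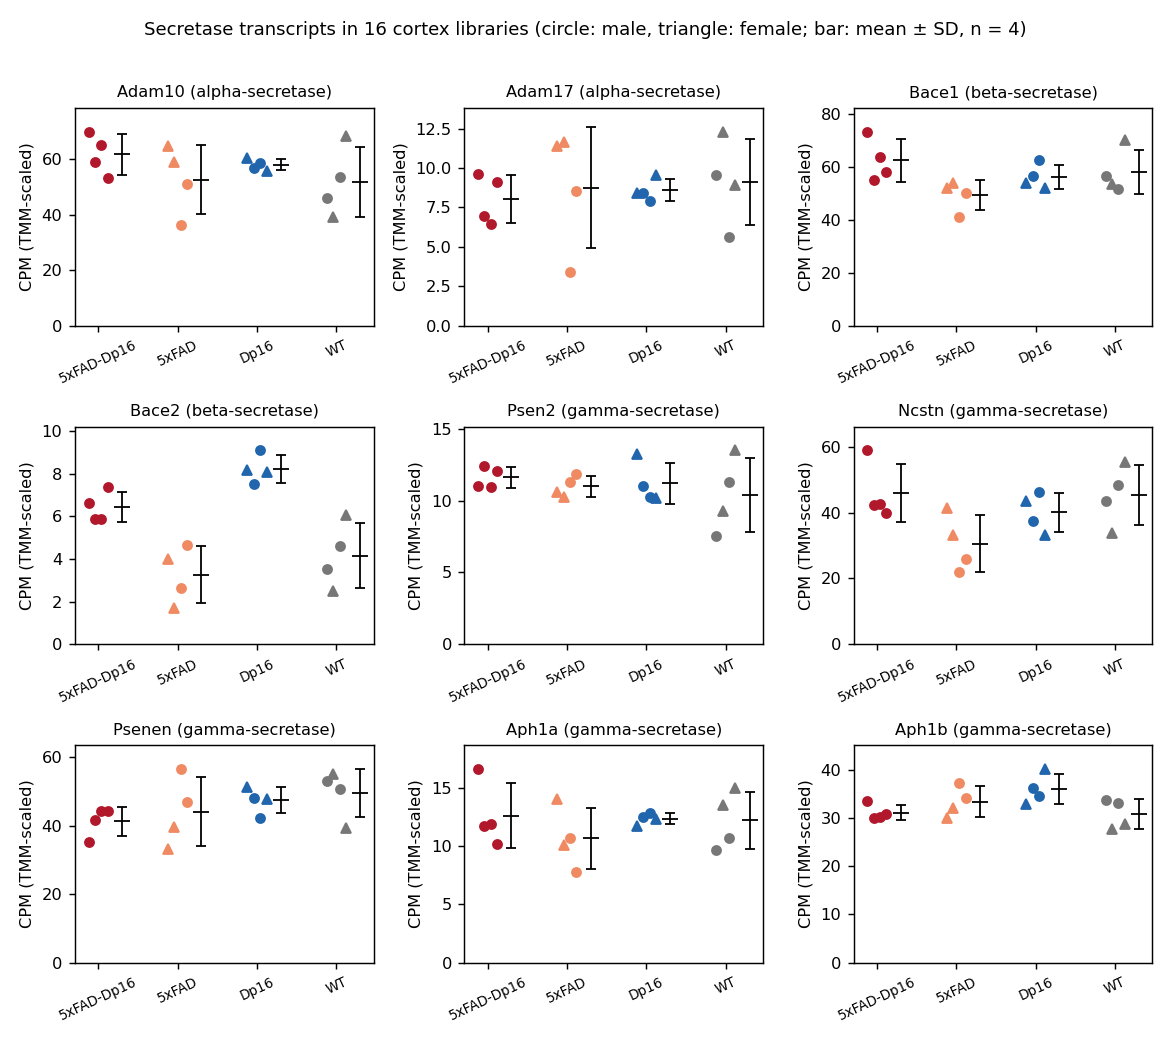
CPM (TMM-scaled, linear axes from 0) of each secretase gene in 16 libraries, with circles for males, triangles for females and bars for the mean ± SD of 4 animals per genotype. For Bace2 the Dp16 animals sit between 7.53 and 9.11 CPM, above the WT animals at 2.48 to 6.05, and the 5xFAD-Dp16 animals sit between 5.87 and 7.38 CPM, above the 5xFAD animals at 1.72 to 4.67.

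A ratio taken inside a library does not depend on library scaling, so the Bace2 to Bace1 ratio of counts per gene length was compared over animals. It was 0.0827 ± 0.0134 in 5xFAD-Dp16, 0.0528 ± 0.0207 in 5xFAD, 0.116 ± 0.00755 in Dp16 and 0.0562 ± 0.0161 in WT (SD, n = 4 each). Bace2 transcripts thus stood well below Bace1 transcripts per length in each genotype, and closest to them in Dp16. The Dp16 ratio was 2.13-fold that of WT (log2 difference 1.09, SE 0.23), with p = 0.0286 in a two-sided exact permutation test, the smallest that 70 assignments allow, and 0.0343 after Benjamini-Hochberg adjustment over 6 ratio tests. The 6 include the tests of a further measure, given below, that was chosen after seeing the data. The adjusted values are therefore not those of the planned tests alone. The 5xFAD-Dp16 ratio was 1.67-fold that of 5xFAD (log2 difference 0.74, SE 0.36), higher in 14 of 16 pairs of animals, with p = 0.0857 in the exact permutation test. Without 5xFAD replicate 2, which had the lowest ratio of the 16 at 0.0252, this log2 difference was 0.42. Over 8 carriers and 8 non-carriers the ratio was 1.89-fold (log2 difference 0.92, SE 0.22), higher in 62 of 64 pairs, with p = 0.000466 in the exact permutation test and 0.0014 after adjustment. The permutation tests have no sex term, and all 5xFAD-Dp16 animals were males. Among males the log2 difference of the ratio was 0.42 in 5xFAD-Dp16 against 5xFAD (exact permutation p = 0.4), 0.91 in Dp16 against WT (exact permutation p = 0.333) and 0.59 over carriers and non-carriers (exact permutation p = 0.0286).

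The same was computed against the summed counts of the other 8 secretase genes, a measure chosen after seeing the data. Bace2 was then 2.05-fold higher in Dp16 than in WT (log2 difference 1.04, SE 0.22) and 1.85-fold higher in 5xFAD-Dp16 than in 5xFAD (0.89, SE 0.34), each with p = 0.0286 in the exact permutation test and 0.0343 after adjustment. Over carriers and non-carriers it was 1.95-fold higher in 64 of 64 pairs, with p = 0.000155 in the exact permutation test, the smallest its 12870 assignments allow. By this measure the Bace2 count relative to the other 8 genes was higher with the duplication than without it. The measure is not scaled by gene length, and its test has no sex term. The planned ratio to Bace1 gave p = 0.0857 in 5xFAD-Dp16 against 5xFAD (exact permutation test). Bace2 alone did not pass the adjustment over 17019 genes.

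Bace2 was set among the other genes of the duplicated segment, taken as chromosome 16 from 75540514 to 97962622. Of 105 tested genes there, 94 had a positive log2 difference in Dp16 against WT, beside 50.4% of all genes. The median of the 105 was 0.55 (1.46-fold), and Bace2 ranked 12 from the top. On the transgenic background (5xFAD-Dp16 against 5xFAD) the median was 0.51 (1.43-fold) and Bace2 ranked 28. For the mean duplication effect the median was 0.51 (1.42-fold), with quartiles of 0.31 and 0.77, and Bace2 ranked 14. There 15 of the 105 passed the adjusted threshold, beside 0.094% of all genes, and Bace2 was not among them. In 5xFAD-Dp16 against WT, which differs in the transgenes too, Bace2 stood at 0.57 beside a median of 0.56 and ranked 52, in the middle. The 95% interval of Bace2 for the mean duplication effect, 0.49 to 1.42, reached down past the segment median of 0.51. The rank of Bace2 is therefore a description.

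**Figure D4:**
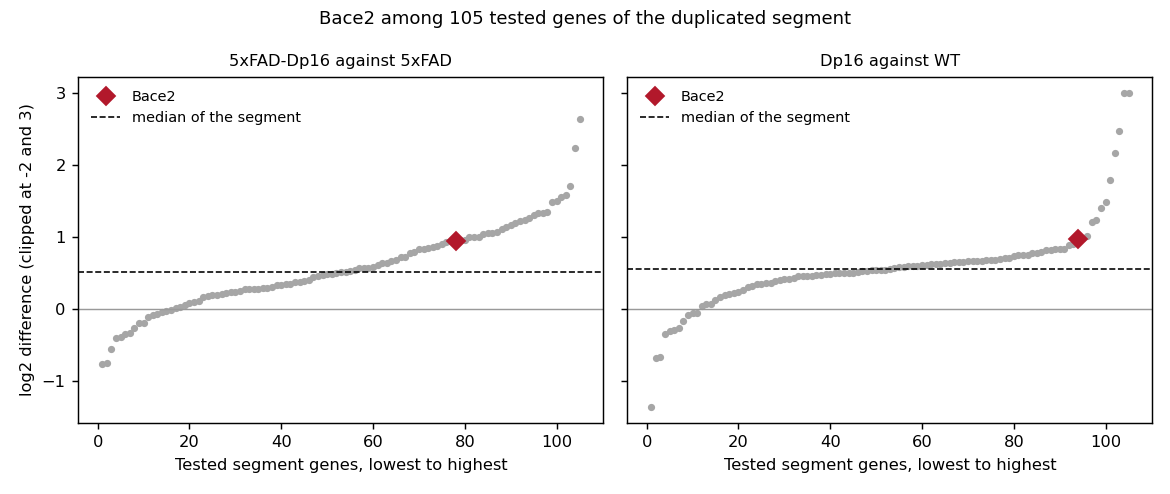
Log2 difference of the 105 tested genes of the duplicated segment, ordered from lowest to highest in 5xFAD-Dp16 against 5xFAD (left) and in Dp16 against WT (right), with values beyond -2 and 3 drawn at those limits. Bace2 (red diamond, 0.94 and 0.97) stands above the dashed median of the segment (0.51 and 0.55) in both.

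The nearest tested genes on the proximal side were B3galt5, a galactosyltransferase gene, Pcp4, a calmodulin-binding peptide gene, and Dscam, a neuronal cell adhesion gene. For the mean duplication effect B3galt5 rose by 0.74 (SE 0.10, adjusted p = 0.00321), while Pcp4 stood at 0.43 (SE 0.17, adjusted p = 0.322) and Dscam at 0.82 (SE 0.21, adjusted p = 0.246). On the distal side were Mx2, an interferon-induced GTPase gene, at 0.20 (SE 0.33, adjusted p = 0.76), Ripk4, a kinase gene, and Prdm15, a zinc finger gene, at 0.37 (SE 0.17, adjusted p = 0.328). Ripk4 passed the test (adjusted p = 0.0345) at a mean of only 0.625 CPM, too low for its fold change to be read.

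The tested genes whose log2 CPM ran most closely with Bace2 over the 16 libraries were Tbxa2r, the thromboxane receptor gene (Pearson's r = 0.883), the transcription factor gene Foxo6 (r = 0.854) and the ubiquitin ligase gene Siah3 (r = 0.848), on chromosomes 10, 4 and 14. Tbxa2r averaged a log2 CPM of only -1.22, so its value rests on few reads. Of the 10 most like Bace2, App (r = 0.835) and Ets2 (r = 0.821), chosen after seeing their values, lie in the duplicated segment. Those most like Bace1 were Hspa12a (r = 0.967), Epb41l3 (r = 0.96) and Arsb (r = 0.958), on chromosomes 19, 17 and 13. The points share their libraries, depth, genotypes and length trends, and the values are a description of likeness only.

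Among the gamma-secretase genes, Psen2 (ENSMUSG00000010609.15, chromosome 1, 180227004 to 180263438, minus strand), which encodes a catalytic subunit, showed no difference beyond its spread. It ranged from 10.97 to 12.4 CPM in 5xFAD-Dp16, 10.2 to 11.9 in 5xFAD, 10.2 to 13.3 in Dp16 and 7.56 to 13.5 in WT. All 4 ranges overlapped, with the widest in WT. Its mean duplication effect was 0.11 (SE 0.13, 95% interval -0.17 to 0.39, adjusted p = 0.662) and the mean transgene effect 0.09 (SE 0.13, 95% interval -0.19 to 0.38, adjusted p = 0.958).

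Ncstn (ENSMUSG00000003458.12, chromosome 1, 172066013 to 172082795, minus strand) encodes nicastrin, the large glycosylated subunit that takes part in substrate entry. It had 59.1, 42.4, 42.6 and 39.8 CPM in 5xFAD-Dp16, 41.3, 33.3, 21.8 and 25.9 in 5xFAD, 43.6, 37.6, 46.2 and 33.1 in Dp16, and 43.5, 33.9, 48.5 and 55.6 in WT. The 5xFAD values were the lowest as a group, and overlapped those of WT, Dp16 and, through 1 library, 5xFAD-Dp16. In 5xFAD against WT the log2 difference was -0.59 (SE 0.20, 0.666-fold, 95% interval -1.01 to -0.16), with an unadjusted p of 0.00935 and an adjusted p of 0.306. In 5xFAD-Dp16 against 5xFAD it was 0.68 (SE 0.22, 1.602-fold, 95% interval 0.21 to 1.15), with an adjusted p of 0.155. These comparisons share the 5xFAD libraries.

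The Ncstn difference between 5xFAD-Dp16 and 5xFAD passed the threshold in other fits. With DESeq2 it was 0.68 (adjusted p = 0.0489), without the filter on low counts 0.70 (adjusted p = 0.0119), in males only 0.96 (adjusted p = 0.00837) and with only the groups compared 0.94 (adjusted p = 0.00553). In the last of these, 5020 of 16014 genes passed, and in males only 3956 of 17567 did, so passing there was common. Both set the 5xFAD-Dp16 animals against the same 2 5xFAD males, because with only those groups the sex term comes from 5xFAD alone. The length trends of these males were -0.483 and -0.262, and those of the 5xFAD females 0.298 and 0.109. DESeq2 called 2.43% of all genes and the fit without the filter 7.6%. With the length trend removed the Ncstn difference was 0.67 (adjusted p = 0.129). The interaction for Ncstn was 0.86 (SE 0.30, adjusted p = 0.522). Beside this, the summed level of 12 microglial markers was 760 to 863 CPM in 5xFAD-Dp16, 982 to 1467 in 5xFAD, 697 to 846 in Dp16 and 669 to 796 in WT, and none of the 12 was at 0 in any library. The summed level of 6 endothelial markers was 99.5 to 167.6 CPM in 5xFAD-Dp16, 75.02 to 109.5 in 5xFAD, 117.9 to 176.4 in Dp16 and 129.8 to 170.5 in WT, and none of the 6 was at 0. All 6 had a negative log2 difference in 5xFAD against WT and a positive one in 5xFAD-Dp16 against 5xFAD, the directions of the Ncstn differences. This was not particular to endothelium. Of 5 oligodendrocyte precursor markers, 0 were positive in 5xFAD against WT and 5 in 5xFAD-Dp16 against 5xFAD. Of 8 neuronal markers it was 2 and 7. The microglial markers went the other way, with 10 and 4 of 12 positive. The part of these cells in the Ncstn values was not tested, and in bulk tissue fewer cells of a type and less RNA per cell cannot be told apart.

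Psenen (ENSMUSG00000036835.7, chromosome 7, 30561863 to 30563627, minus strand) encodes the small subunit needed for presenilin to mature, and has the shortest transcript of the 9. It had 35.1, 41.7, 44.2 and 44.2 CPM in 5xFAD-Dp16, 33.3, 39.5, 56.6 and 46.8 in 5xFAD, 51.3, 48.1, 42.2 and 47.6 in Dp16, and 53.1, 55.2, 50.6 and 39.2 in WT. The genotypes overlapped, and the 5xFAD library at 56.6 CPM was the one in which long genes read lowest. The mean duplication effect was -0.11 (SE 0.11, 95% interval -0.34 to 0.12, adjusted p = 0.596). Corrected for the length trend it had the opposite sign, 0.13 (adjusted p = 0.369). The mean transgene effect was -0.23 (SE 0.11, 95% interval -0.47 to 0.01, adjusted p = 0.687), or -0.14 with the trend removed.

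Aph1a (ENSMUSG00000015750.15, chromosome 3, 95893969 to 95898288, plus strand) and Aph1b (ENSMUSG00000032375.15, chromosome 9, 66775202 to 66795490, minus strand) encode alternative scaffold subunits. Aph1a ranged from 10.2 to 16.7 CPM in 5xFAD-Dp16, 7.81 to 14.1 in 5xFAD, 11.8 to 12.9 in Dp16 and 9.64 to 14.99 in WT. Its mean duplication effect was 0.22 (SE 0.15, 95% interval -0.09 to 0.52, adjusted p = 0.435) and its mean transgene effect -0.02 (SE 0.14, adjusted p = 0.996). All 4 ranges of Aph1a overlapped, and the Dp16 range lay within the WT range.

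Aph1b varied least of the 9 over the 16 libraries, with an SD of log2 CPM of 0.14, but not once the length trend was removed (0.22, above Bace1, Psenen and Adam10). It had 33.5, 30.0, 30.1 and 30.8 CPM in 5xFAD-Dp16, 30.0, 32.2, 37.4 and 34.2 in 5xFAD, 32.9, 36.3, 34.6 and 40.3 in Dp16, and 33.8, 27.8, 33.2 and 28.7 in WT. The Dp16 values were the highest as a group, and the genotypes overlapped. In 5xFAD-Dp16 against Dp16 the log2 difference was -0.28 (SE 0.12, 0.823-fold, 95% interval -0.54 to -0.02, adjusted p = 0.758), and the interaction was -0.40 (SE 0.17, adjusted p = 0.522). The mean duplication effect was 0.03 (SE 0.08, 95% interval -0.15 to 0.21, adjusted p = 0.861), the narrowest interval of the 9 in this fit, and -0.08 with the trend removed.

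The near-identical copy Aph1c (ENSMUSG00000053040.13, chromosome 9, 66814994 to 66834726, minus strand) ranged from 6.93 to 9.91 CPM in 5xFAD-Dp16, 6.72 to 10.6 in 5xFAD, 5.99 to 9.45 in Dp16 and 5.57 to 8.99 in WT. Per length, Aph1c made up 19.4 ± 2.91% of Aph1b and Aph1c together in 5xFAD-Dp16, 18.3 ± 2.94% in 5xFAD, 17.2 ± 2.66% in Dp16 and 18.8 ± 2.49% in WT (SD, n = 4 each). Aph1a made up 35.7 ± 4.68% of the 3 Aph1 genes in 5xFAD-Dp16, 30.8 ± 6.91% in 5xFAD, 32.9 ± 1.83% in Dp16 and 35.5 ± 7.04% in WT. The ranges of both shares overlapped between all 4 genotypes. With the counts of Aph1b and Aph1c summed, the mean duplication effect was 0.03 (adjusted p = 0.889) and the interaction -0.35 (adjusted p = 0.521).

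Across the 8 genes outside the segment, the mean duplication effect lay between -0.11 and 0.26 (0.926-fold to 1.194-fold), with 95% intervals that together spanned -0.36 to 0.57. The highest of these intervals was that of Ncstn. In Dp16 against WT the same 8 genes lay between -0.18 and 0.23, and in 5xFAD-Dp16 against 5xFAD between -0.17 and 0.68. Over all 9 genes, Bace2 included, the median was 0.17 for the mean duplication effect, beside 0.02 over all tested genes. There 8 of 9 were positive beside 52.1% of all genes, and 7 of 9 with the length trend removed. In Dp16 against WT the median was 0.04 beside 0.00, with 5 of 9 positive beside 50.4%. In 5xFAD against WT it was -0.18 beside 0.02, with 3 of 9 positive beside 52.1%. The lean was thus not seen in Dp16 against WT. The median for 5xFAD-Dp16 against 5xFAD was 0.35 beside 0.00, and 0.21 with the length trend removed.

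Some of these values ran with the length trend of the libraries. Adam10, Bace1 and Ncstn, with transcripts of 4593, 6058 and 2901 bases, read low in the libraries where long genes read low, and Psenen, with 823 bases, read high there. Removing the trend lowered the SD of log2 CPM over the 16 libraries to 0.17 for Adam10 (0.27 with the trend), to 0.10 for Bace1 (0.20) and to 0.16 for Psenen (0.22). It left Ncstn at 0.37 and Aph1a at 0.27, and for Bace2 the SD was 0.61 without the trend and 0.68 with it. For 2 genes the SD was larger without the trend: 0.22 against 0.14 for Aph1b, whose transcript of 4910 bases is long, and 0.23 against 0.20 for Psen2. The Bace2 mean duplication effect was 0.80 with the trend removed (adjusted p = 0.14), and its difference between 5xFAD-Dp16 and 5xFAD was 0.62 (adjusted p = 0.204).

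**Figure D5:**
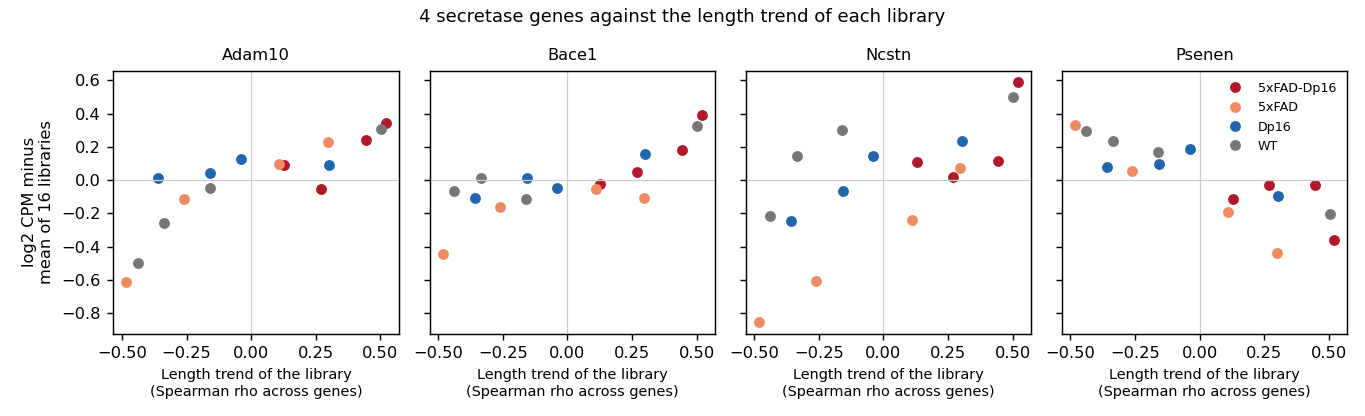
Log2 CPM of Adam10, Bace1, Ncstn and Psenen in each library, minus the mean of 16 libraries, against the length trend of that library (Spearman's rho across genes between gene length and relative level), coloured by genotype. Adam10, Bace1 and Ncstn lie low and Psenen high in the 5xFAD library with a trend of -0.483, and the 4 5xFAD-Dp16 libraries all lie on the side of positive trends, 0.128 to 0.522.

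The wider pathway was read from lists of regulators, relatives, substrates and amyloid-degrading enzymes. Of 16 tested alpha-secretase regulators, 15 beta-secretase regulators, 8 gamma-secretase regulators and 4 relatives of the gamma-secretase subunits, 0 passed the adjusted threshold of edgeR's quasi-likelihood test in any comparison, and at an unadjusted p under 0.05 the mean duplication effect held 4, 4, 1 and 0 of them, beside 15% of all genes. In 5xFAD-Dp16 against 5xFAD, 10 of the 15 beta-secretase regulators had an unadjusted p under 0.05 beside 23.8% of all genes, and 9 of the 15 were positive. Their median there was 0.23, and with the length trend removed it was 0.05 with 8 of the 15 positive. In Dp16 against WT, 1 of the 15 had an unadjusted p under 0.05, and the median was -0.03. Of 34 tested secretase substrates, Trem2, a microglial receptor that alpha-secretases shed, was the only one to pass. Trem2 rose in 5xFAD against WT by 1.59 (SE 0.17, adjusted p = 0.000274), and its mean transgene effect was 1.06 (SE 0.12, adjusted p = 0.000557). Between 5xFAD-Dp16 and 5xFAD it stood at -0.95 (SE 0.18, adjusted p = 0.0811). Trem2 is also one of the 12 microglial markers summed above.

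The list of substrates, Trem2 included, leaned one way in 5xFAD-Dp16 against 5xFAD without passing. Of the 34, 30 were positive there, with a median of 0.50, beside 49.8% positive and a median of 0.00 over all genes. With the length trend removed 25 of 34 were positive and the median was 0.27. Examples chosen after seeing their values were Nrg1, a growth factor that Bace1 cuts, at 1.19 (SE 0.24, adjusted p = 0.0855), and Aplp1, a relative of the amyloid precursor, at 0.74 (SE 0.23, adjusted p = 0.155). The lean was not seen in Dp16 against WT, where 18 of 34 were positive with a median of 0.01, beside 50.4% and 0.00. In 5xFAD against WT, 5 of 34 were positive with a median of -0.39, beside 52.1% and 0.02. That comparison shares the 5xFAD libraries with 5xFAD-Dp16 against 5xFAD.

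Of 9 amyloid-degrading enzymes and their activators, 0 passed in any comparison between genotypes, and the mean duplication effect held 3 at an unadjusted p under 0.05, beside 15% of all genes. In 5xFAD-Dp16 against 5xFAD, 6 of 9 were positive with a median of 0.86, beside 49.8% and 0.00 over all genes. For the mean duplication effect it was 7 of 9 with a median of 0.49, beside 52.1% and 0.02. With the length trend removed these medians were 0.69 and 0.39. Dp16 against WT gave 5 of 9 with a median of 0.11, beside 50.4% and 0.00. In 5xFAD against WT it was 3 of 9 with a median of -0.31, beside 52.1% and 0.02. Chosen after seeing their values, Ace, the angiotensin-converting enzyme, stood at 0.80 (SE 0.25, adjusted p = 0.322) and Ide, the insulin-degrading enzyme, at 0.49 (SE 0.17, adjusted p = 0.322) for the mean duplication effect. Plat, tissue plasminogen activator, likewise chosen, had a mean transgene effect of -0.60 (SE 0.12, adjusted p = 0.0518), and passed with the length trend removed (-0.57, adjusted p = 0.0434), the 1 of the 9 to do so.

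Sex was estimated from the 5xFAD, Dp16 and WT groups, since the 5xFAD-Dp16 animals were males. Of the 9 genes 0 passed for male against female, beside 0.0353% of all genes, and at an unadjusted p under 0.05 it was 1 of 9 beside 4.03%. That gene was Adam17, with a log2 difference of -0.52 (SE 0.22, 95% interval -0.98 to -0.05, adjusted p = 0.889). Without 5xFAD replicate 3 it was -0.34. The Adam17 values of males were 3.43 and 8.54 CPM in 5xFAD, 8.44 and 7.90 in Dp16, and 9.58 and 5.63 in WT, against 11.4 and 11.7 in 5xFAD females, 8.45 and 9.55 in Dp16 females, and 12.3 and 8.94 in WT females. The sexes stood apart within 5xFAD, nearly met within Dp16 (8.44 and 8.45 CPM) and overlapped in WT. With 2 animals of each sex per genotype, their order says little. For Bace2 the sex difference was 0.10 (SE 0.24, adjusted p = 0.935).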

How the data were processed

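Read counts per gene were deposited by the authors as whole numbers with no normalization, on the Gencode release 24 mouse annotation and build GRCm38, per the file headers and the submitters' processing notes. RPKM values were deposited by the authors in a second table, and 100.0% of non-zero values matched the count scaled by gene length and column total within 0.1%. The notes name bcl2fastq, FastQC 0.11.5, HISAT2 2.1.0, SAMtools 1.5 and HTSeq 0.6.1 with no roles, and per the labels' protocols the library kit was strand-specific. Positions came from Gencode release 21 by gene identifier, which matched 55144 of 55385 genes and all 9 secretase genes.

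Genes were kept by filterByExpr (17019 genes) and scaled by TMM. A mean per genotype and a sex term were fitted to all 16 libraries with edgeR 4.0.16 in R 4.3.3 (robust quasi-likelihood, common biological coefficient of variation 0.266). Tests were two-sided, Benjamini-Hochberg adjusted over the 17019 genes, and called at 0.05. Intervals are 95% intervals of the fitted log2 difference. CPM values are counts scaled by the TMM-adjusted library total, and log2 CPM used a prior count of 2. Ratios were compared by exact permutation tests over animals (scipy 1.17.1). The length trend was removed by an offset per library from a smooth fit (span 0.3) on log gene length. Each animal gave 1 library, and p-values measure the spread between animals. Of the library pairs, 0 held identical values. The test was also run on simulated counts, and no result of that run is reported here.

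The secretase genes, the lists, the comparisons and the tests were chosen with earlier results of these data known. The secretase genes, Aph1c, the genes of each list past the threshold (up to 4), the 3 genes most like Bace1 and Bace2 and the 3 tested neighbours of Bace2 on each side were to be named, and any other gene is marked as chosen after its values were seen. Alternatives were other size factors, no filter, DESeq2 1.42.0, no sex term, males only, the length trend removed, a replicate block, only the groups compared, Aph1b and Aph1c summed, and each library left out in turn. Protein sequences were not used here, and the other presenilin gene is not reported here.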

Additional observations from a re-analysis of the deposited data

Results flagged for a closer look

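Ncstn in 5xFAD-Dp16 replicate 1 stood at 59.08 CPM, apart from the other 3 libraries of its group at 39.8 to 42.61 CPM. The gap to the nearest of them was 0.854 of the group's range, above Dixon's critical value for 4 samples. It was the one such library among 36 combinations of gene and genotype examined, of which chance alone flags about 5%. That library also had the highest length trend of the 16, at 0.522. Without it the Ncstn difference between 5xFAD-Dp16 and 5xFAD was 0.54 on the log2 scale (adjusted p = 0.413), against 0.68 (adjusted p = 0.155) with it.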

How the results depend on the processing

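The count of secretase genes past the adjusted threshold was 0 in every comparison of the 16-library fit, and other settings moved it in 2 of them. In 5xFAD-Dp16 against 5xFAD it was 2 with no filter on low counts, 1 with DESeq2, 3 in males only and 3 with only the groups compared, where 7.6%, 2.43%, 22.5% and 31.3% of all genes passed. The fits of males only and of only the groups compared both rest on the same 2 5xFAD males. For the mean duplication effect the settings below moved the count too. For the mean duplication effect it was 1 (Bace2) with no filter, 1 with DESeq2, 1 in males only and 1 without WT replicate 4, and it ran from 0 to 1 over the libraries left out in turn. The shares of all genes that passed there were 3.76%, 0.326%, 14.2% and 0.247% there. The adjusted p of Bace2 under these 4 settings was 0.00231, 0.011, 0.0268 and 0.039. Its mean duplication effect lay between 0.88 and 1.11 over the libraries left out in turn.

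The log2 difference of the Bace2 to Bace1 ratio in Dp16 against WT was 0.908 in males only (exact permutation p = 0.333, the smallest 2 animals against 2 allow) and 0.903 to 1.217 with 1 library left out (exact permutation p = 0.0571, the smallest 35 assignments allow). In males only it was also lower in 5xFAD-Dp16 against 5xFAD (0.418, exact permutation p = 0.4) and over all carriers (0.591, exact permutation p = 0.0286). With Bace2 set against the summed other genes, the log2 difference was 0.889 in 5xFAD-Dp16 against 5xFAD (exact permutation p = 0.0286).

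The mean duplication effect changed sign for 3 genes, none of them called. For Adam17 it was -0.104 with no sex term, -0.023 with the length trend removed, -0.077 without WT replicate 2 and 5xFAD replicate 3 together (chosen after seeing the data), and -0.106 to 0.184 with 1 library left out. For Aph1b it was -0.054 in males only, -0.079 with the length trend removed and -0.029 to 0.057 with 1 library left out. For Psenen it was 0.133 with the length trend removed. The cause was not tested.

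The sample numbers did not pair the animals: same-numbered libraries deviated together with correlations of -0.365 to 0.316 over 24 pairs. With the replicate block, 0 secretase genes passed in each comparison, and the mean duplication effect of Bace2 was 0.99 (adjusted p = 0.217). The order of the levels was the same with CPM per kilobase. Depth limits Bace2 most, with 30 to 180 reads per library.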
